A study of Mus musculus with 12 samples.

Results

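De novo lipogenesis was followed through 10 genes chosen by name for their role in it, the transcription factors Srebf1 and Mlxipl, the enzymes Acly, Me1, Acaca, Fasn, Elovl6 and Scd1, the regulator Thrsp and the lipid droplet gene Pnpla3. All 10 were measured, out of 18193 genes with a probe set of their own, and together they had 22 of the 45101 probe sets. RNA of primary mouse hepatocytes was hybridised to 12 Affymetrix arrays, 3 in each of 4 groups, with 1 mouse per array by the design text. Wild type cells were from C57BL6/J mice with the mouse aryl hydrocarbon receptor (AHR). The human AHR cells came from a strain labelled B6.Cg-Ahrtm3.1Bra with the transgenes Alb-cre and Ttr-AHR (line 1Ghp), in which Cre driven by the albumin promoter acts on a floxed Ahr and the Ttr promoter drives the human receptor, so that the exchange is limited to cells using those promoters. In each genotype cells received 10 nM TCDD, a dioxin that activates AHR, or DMSO as vehicle for 6 h. All groups shared a culture of 48 h in medium with 2.5% dimethyl sulfoxide and 10 nM dexamethasone, so vehicle cells also met both agents. Ages of the mice are not in the labels. Values are the deposited intensities rescaled so that every array has the same trimmed mean, listed in the order of replicates 1, 2 and 3, and differences are of log2(intensity + 16). After rescaling the array medians lay between 16.5 and 23.5, arrays of a group correlated at 0.958 to 0.985, and no 2 arrays were identical. The number of arrays limits the precision.

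The liver turns surplus carbohydrate into fat through de novo lipogenesis. Citrate leaves the mitochondrion and is cleaved to acetyl-CoA, acetyl-CoA carboxylase makes malonyl-CoA from it, and fatty acid synthase builds palmitate at the expense of NADPH, after which elongases and desaturases make the longer and unsaturated fatty acids that go into triglyceride. Insulin acts on these genes largely through SREBP1c and glucose through ChREBP, and dioxin exposure in rodents is known for its effects on liver fat.

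The promoters were searched for short motifs because the receptor activated by TCDD binds DNA. AHR and its partner ARNT bind xenobiotic response elements whose core is GCGTG. Windows of 250 bases before each annotated start were taken from RefSeq (GRCm38.p6), which gave 13 windows for 9 of the 10 genes, and Scd1 was not matched. The GCGTG core was found on either strand in 3 of the 13 windows, those of Fasn, Pnpla3 and 1 of the Mlxipl starts, and in 28.2% of 32851 windows of the same length over all genes. The windows are shown 5′ to 3′ on the gene's strand because they are the only windows of these genes that hold the core, followed by that of Tiparp, a TCDD-induced gene, for comparison. Capitals mark GCGTG or its reverse complement CACGC.
Fasn, chr11:120824548-120824797, minus strand: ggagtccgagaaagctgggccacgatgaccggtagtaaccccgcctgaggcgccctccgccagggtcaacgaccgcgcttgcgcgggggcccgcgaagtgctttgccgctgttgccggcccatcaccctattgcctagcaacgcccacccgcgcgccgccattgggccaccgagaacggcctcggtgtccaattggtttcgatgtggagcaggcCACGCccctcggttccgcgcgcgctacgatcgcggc
Mlxipl, chr5:135106641-135106890, plus strand: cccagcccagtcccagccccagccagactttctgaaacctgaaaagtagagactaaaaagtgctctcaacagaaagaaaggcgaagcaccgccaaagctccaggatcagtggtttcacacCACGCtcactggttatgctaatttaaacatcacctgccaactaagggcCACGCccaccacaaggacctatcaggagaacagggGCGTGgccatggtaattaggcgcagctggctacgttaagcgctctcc
Pnpla3, chr15:84167566-84167815, plus strand: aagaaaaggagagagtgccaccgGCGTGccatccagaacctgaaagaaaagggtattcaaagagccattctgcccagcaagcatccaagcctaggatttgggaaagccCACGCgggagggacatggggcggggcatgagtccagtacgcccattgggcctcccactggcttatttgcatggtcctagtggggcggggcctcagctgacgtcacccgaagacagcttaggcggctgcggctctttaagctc
Tiparp, chr3:65528197-65528446, plus strand: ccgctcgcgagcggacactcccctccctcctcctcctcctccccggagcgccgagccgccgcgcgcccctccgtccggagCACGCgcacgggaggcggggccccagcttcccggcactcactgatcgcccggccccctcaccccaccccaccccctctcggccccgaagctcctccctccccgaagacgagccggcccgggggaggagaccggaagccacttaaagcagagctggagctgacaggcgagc
Counted back from the start, the core lay at -36 to -32 in Fasn, at -130 to -126, -82 to -78 and -47 to -43 in Mlxipl, at -227 to -223 and -142 to -138 in Pnpla3, and at -170 to -166 in Tiparp. The box CCAAT, which NF-Y binds beside SREBP sites, was found on either strand in 7 of the 13 windows, belonging to Fasn, Me1, Mlxipl, Pnpla3, Srebf1 and Thrsp, and in 33.8% of all windows. Fasn held 3 such boxes, at -90 to -86, -62 to -58 and -59 to -55, of which the last pair overlap. The palindromic E-box CACGTG occurred in the other Mlxipl window alone, at -98 to -93, and in 6.02% of all windows. The sterol element TCACNCCAC occurred in the printed Mlxipl window, at -136 to -128, where it overlaps the farthest GCGTG core, and in 1.05% of all windows. These matches describe letters in the windows, and binding was not measured.

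None of the lipogenesis genes passed the test for a TCDD effect, in wild type or in human AHR cells. The limma model called 0 of the 10 in wild type cells and 0 of the 10 in human AHR cells, against 0.0055% and 0.022% of 18193 genes tested in those comparisons, and 0 of the 10 had an unadjusted p below 0.05 in either. So few genes were called at all that these counts set the members apart from nothing. For scale, Tiparp read 1402, 911 and 1098 in the wild type vehicle arrays and 2575, 3324 and 2534 under TCDD, and 1327, 1403 and 1342 against 3538, 3609 and 3479 in human AHR cells. Its log2 differences of 1.30 (95% confidence interval 0.97 to 1.64) and 1.37 (1.04 to 1.71) lay above the upper confidence bound of every lipogenesis gene. Cyp1a1, the cytochrome P450 induced through AHR, read 25.3, 24.0 and 18.5 under vehicle and 125, 2518 and 64.9 under TCDD in wild type cells, and 81.9, 63.0 and 60.5 against 6624, 4004 and 6939 in human AHR cells. Its log2 difference of 2.995 in wild type cells (1.11 to 4.88, limma adjusted p = 0.966) was not called. The difference of 6.09 in human AHR cells (4.21 to 7.97, limma adjusted p = 0.0424) was called. A gene left uncalled by this test can therefore still differ.

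**Figure D1:**
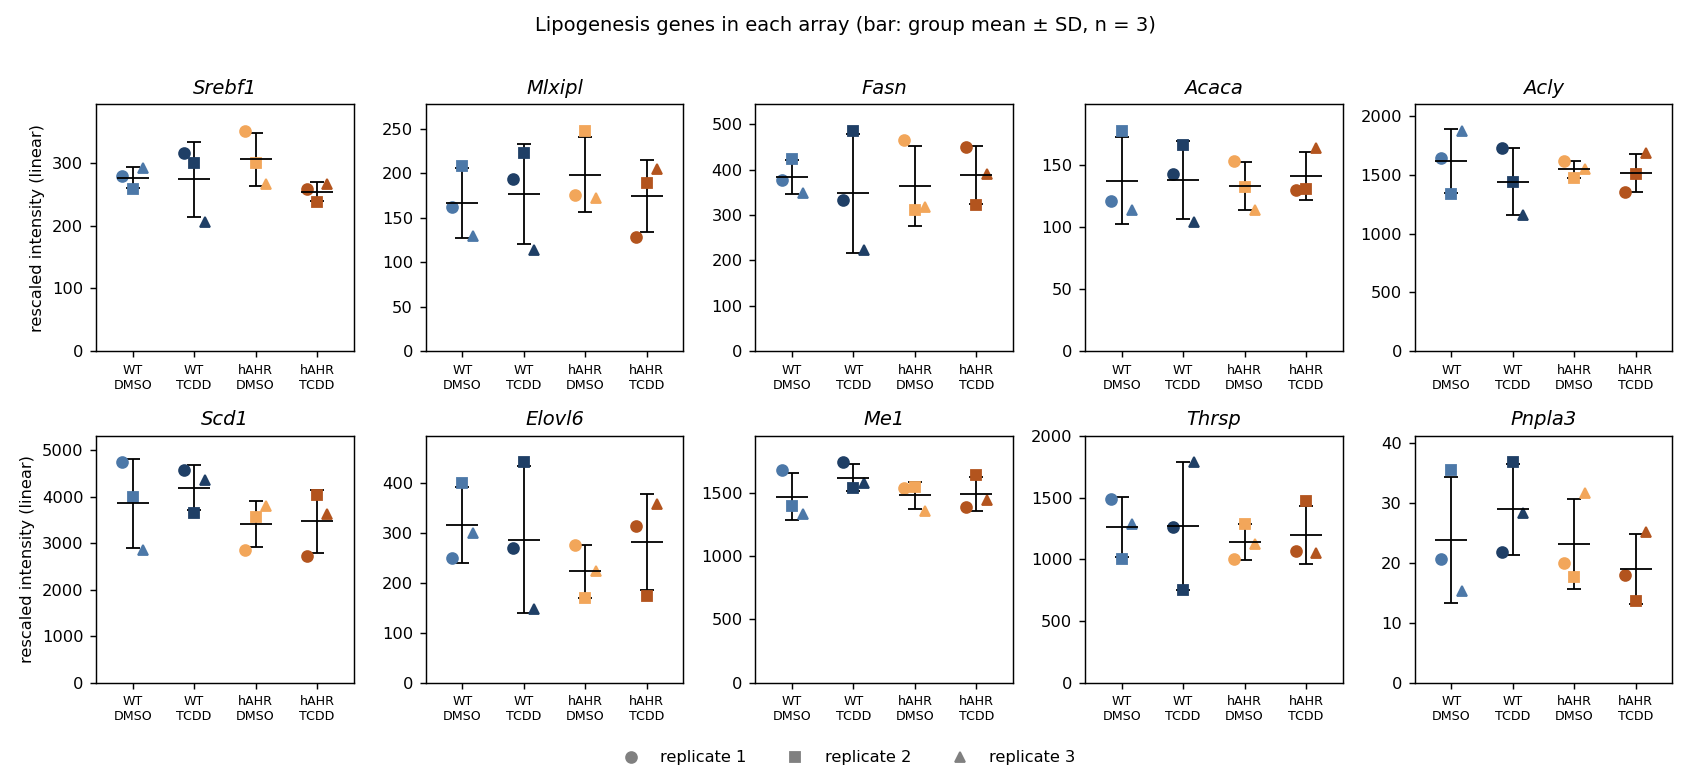
Rescaled intensity (linear) of each lipogenesis gene in each of the 12 arrays, with bars for the group mean ± SD (n = 3) and symbol shapes for the replicate number. The groups overlap for every gene and comparison except Srebf1 in human AHR cells, where the highest TCDD array (265.6) lies just under the lowest vehicle array (266.3).

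The transcription factors come first. Srebf1 encodes SREBP1, the membrane-bound factor that is cut and moves to the nucleus to switch on fatty acid synthesis. In wild type cells it read 278, 258 and 292 under vehicle and 316, 299.8 and 206 under TCDD. The TCDD arrays lay on both sides of the vehicle arrays, and the log2 difference was -0.03, with a 95% confidence interval of -0.39 to 0.33 (adjusted p = 0.989). In human AHR cells Srebf1 read 351, 299 and 266.3 under vehicle and 259, 238 and 265.6 under TCDD, a mean of 305 ± 42.6 against 254 ± 14.4 (SD, n = 3). All TCDD arrays lay below all vehicle arrays, as was true of 3.87% of all genes in this comparison (7.21% counting either direction, and 9.0% in wild type cells), and the gap between the groups was smaller than the distance between any pair of arrays within them. The log2 difference was -0.24 (-0.60 to 0.12, unadjusted p = 0.166, adjusted p = 1.0). Mlxipl encodes ChREBP, the glucose-responsive factor. It read 162, 208 and 129.6 against 194, 223 and 114 in wild type cells, and 176, 248 and 172 against 129, 189 and 205 in human AHR cells. Vehicle and TCDD arrays overlapped in both, at log2 differences of 0.06 (-0.49 to 0.61) and -0.18 (-0.73 to 0.37).

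Acly and Me1 supply the pathway. Acly, the ATP citrate lyase that makes cytosolic acetyl-CoA, read 1646, 1335 and 1874 under vehicle and 1731, 1439 and 1158 under TCDD in wild type cells. The human AHR readings were 1620.0, 1471 and 1550.0 against 1357, 1506 and 1685. The TCDD arrays overlapped the vehicle arrays in both genotypes, with log2 differences of -0.17 (-0.52 to 0.18) and -0.03 (-0.38 to 0.32). Me1, the malic enzyme that yields NADPH, read 1679, 1393 and 1335 against 1740.0, 1539 and 1575 in wild type cells, and 1536, 1548 and 1357 against 1391, 1640.0 and 1443 in human AHR cells. It had the narrowest intervals of the set, -0.13 to 0.41 around 0.14 in wild type and -0.26 to 0.28 around 0.01 in human AHR cells.

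Acaca and Fasn make the fatty acid. Acaca, the acetyl-CoA carboxylase whose step commits carbon to synthesis, read 121, 177 and 113 under vehicle and 143, 166 and 104 under TCDD in wild type cells. The human AHR arrays read 153, 132 and 114 against 130.1, 130.2 and 164. The groups overlapped throughout, at log2 differences of 0.00 (-0.45 to 0.46) and 0.08 (-0.37 to 0.53). Fasn, the synthase itself, read 378, 424 and 349 under vehicle and 334, 486 and 224 under TCDD in wild type cells. The highest and the lowest Fasn value of that genotype were both TCDD arrays, so that the SD was 132 under TCDD and 38.1 under vehicle (n = 3 each). With human AHR it read 466, 311 and 318 against 450.0, 322 and 390.0. Its log2 differences were -0.20 (-0.71 to 0.32) and 0.09 (-0.42 to 0.61).

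Elovl6 and Scd1 finish the chain. Elovl6, which lengthens palmitate to stearate, read 249.5, 399 and 300.2 under vehicle and 270.3, 440.5 and 148 under TCDD in wild type cells, and 274, 169 and 224 against 314, 174 and 357 in human AHR cells. It again had its highest and lowest values among the wild type TCDD arrays. Its log2 difference was -0.23 in wild type (-0.97 to 0.50) and 0.28 in human AHR cells (-0.45 to 1.02), the widest intervals among the 10 genes. Without wild type TCDD replicate 3 the wild type value was 0.15. Scd1, the desaturase that makes oleate, read 4743, 3998 and 2848 against 4578, 3656 and 4354 in wild type cells, and 2852, 3577 and 3804 against 2731, 4051 and 3634 in human AHR cells. These groups overlapped too, at log2 differences of 0.14 (-0.29 to 0.58) and 0.02 (-0.41 to 0.45).

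Thrsp, or Spot 14, is a thyroid hormone and carbohydrate responsive protein that promotes lipogenesis. It read 1488, 1002 and 1291 under vehicle and 1266, 749.8 and 1787 under TCDD in wild type cells. Replicate 2 was the lowest array under both treatments, and the extremes again fell among the TCDD arrays. In human AHR cells Thrsp read 1004, 1291 and 1123 against 1069, 1473 and 1051, with replicate 2 the highest under both. The log2 differences were -0.06 (-0.62 to 0.50) and 0.06 (-0.50 to 0.62). Pnpla3, a lipid droplet protein of the hepatocyte whose gene is a target of SREBP1c and ChREBP, read 20.6, 35.5 and 15.3 against 21.7, 36.7 and 28.2 in wild type cells, and 20, 17.7 and 31.6 against 18, 13.6 and 25.1 in human AHR cells. These readings lie near the offset of 16 that was added to every value before taking log2, so a fold change of this gene is understated. Its log2 differences were 0.19 (-0.34 to 0.72) and -0.16 (-0.69 to 0.37).

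Over the 10 genes the median log2 difference with TCDD was -0.01 in wild type cells, with 5 positive and 5 negative, and 0.01 in human AHR cells, with 6 positive and 4 negative. The medians over all 18193 genes were 0.03 and -0.01. The median size of the difference, sign aside, was 0.14 and 0.09 for the 10 genes and 0.15 and 0.12 for all genes. The confidence intervals of single genes ran from 0.510-fold to 1.65-fold in wild type and from 0.603-fold to 2.03-fold in human AHR cells at their extremes. Changes within these bounds are not excluded by 3 arrays a group. The bounds are for single genes and do not set what the test over all genes can call. Larger log2 differences went uncalled, such as 2.995 for Cyp1a1 in wild type and 1.11 for the droplet gene Plin4 in human AHR cells. The 1.65-fold bound is that of Pnpla3, whose fold change the offset understates. Averaged over both genotypes the intervals were narrower, from 0.709-fold to 1.46-fold, and 0 of 10 genes were called against 0.022% of all genes. Srebf1 had the smallest p there, at -0.14 (-0.39 to 0.12, adjusted p = 0.997).

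**Figure D2:**
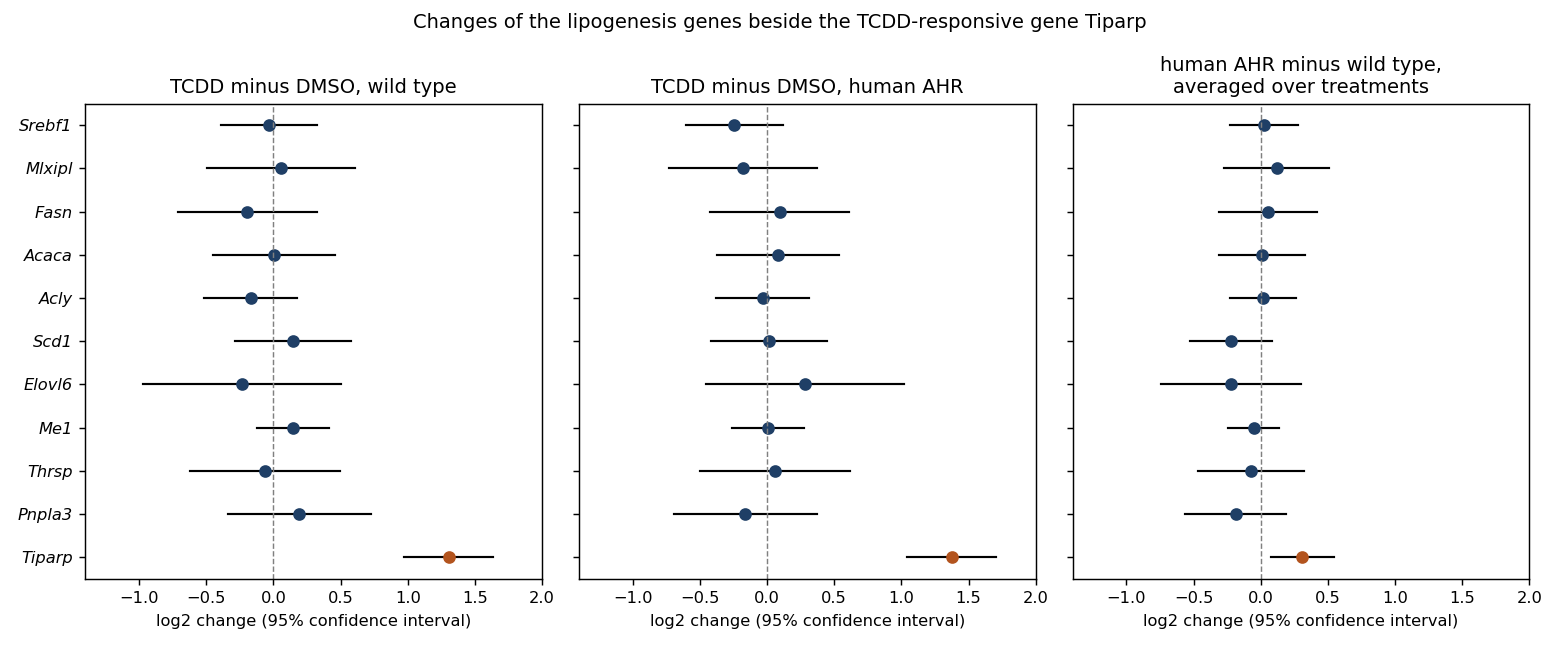
Log2 difference and 95% confidence interval of each lipogenesis gene and of Tiparp (orange) for TCDD minus vehicle in wild type cells, in human AHR cells, and for human AHR minus wild type averaged over treatments. The interval of every lipogenesis gene includes 0, while Tiparp stands at 1.30 and 1.37 in the TCDD panels.

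The design also asks whether the human receptor gives another response than the mouse receptor. The difference of the TCDD effects, human AHR minus wild type, was called for 0 of the 10 genes and for 0.0% of all genes, where 572 genes had an unadjusted p below 0.05. Elovl6 had the highest value at 0.52 (95% confidence interval -0.53 to 1.56), Pnpla3 the lowest at -0.35 (-1.10 to 0.40), and Srebf1 stood at -0.21 (-0.72 to 0.29), each with an adjusted p of 0.998. The Elovl6 value was 0.88 without wild type TCDD replicate 2, 0.14 without wild type TCDD replicate 3, 0.81 without human AHR TCDD replicate 2, 0.33 without human AHR TCDD replicate 3, and 0.35 without replicate 2 of either vehicle group. The median over the genes was -0.03, beside -0.04 over all genes. These intervals, up to 2.95-fold, are too wide to show that the receptors act alike on this pathway.

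Genotype made no called difference either. Under vehicle 0 of the 10 genes were called, against 0.0055% of all genes, and under TCDD 0 of the 10, against 0.0%, where 747 genes had an unadjusted p below 0.05. The genotypes overlapped for all 10 genes under each treatment, while 10.7% of all genes did not overlap under vehicle and 8.1% under TCDD. Elovl6 stood lowest in human AHR cells under vehicle, at a mean of 222 ± 52.6 against 316 ± 76.0 in wild type (SD, n = 3), a log2 difference of -0.48 (-1.21 to 0.26, adjusted p = 0.965). The arrays overlapped, since human AHR replicate 1 (274) lay above wild type replicate 1 (249.5). Without wild type vehicle replicate 2 the value was -0.30, and without human AHR vehicle replicate 2 it was -0.31. Mlxipl stood highest at 0.24 (-0.31 to 0.79). Under TCDD Pnpla3 was at -0.36 (-0.89 to 0.17) and Scd1 at -0.28 (-0.72 to 0.15). Averaged over treatments, 0 of 10 genes were called, against 0.022% of all genes. Scd1 was at -0.22 (-0.53 to 0.08, adjusted p = 0.954), Elovl6 at -0.22 (-0.74 to 0.30) and Pnpla3 at -0.19 (-0.56 to 0.19). Without both wild type replicate 2 arrays, the arrays with the female pattern, the averaged Elovl6 value was 0.05.

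Markers of Kupffer cells, the macrophages of the liver, were measured beside the genotype comparisons. The 8 measured Kupffer cell markers summed to 1922 to 3413 in wild type vehicle, 1857 to 4154 in wild type TCDD, 2066 to 4321 in human AHR vehicle and 1859 to 4024 in human AHR TCDD arrays. The sums overlapped between genotypes, but most of each sum was Cd68, at 1822, 3315 and 2039 in wild type vehicle arrays, so they say little about the other markers. Log2 differences, human AHR over wild type, were positive for 8 of 8 under vehicle, at a median of 1.27, and for 7 of 8 under TCDD, at 1.01, and 0 were called. Averaged over treatments, 7 of 8 had an unadjusted limma p below 0.05, beside 5.33% of all genes, and 0 were called. High values came from human AHR replicates 2 and 3, as for the complement gene C1qa at 183 and 312 under vehicle, against 4.2 in replicate 1 and 0.9 to 25.8 in wild type. Under TCDD C1qa read 10.8, 170 and 281 in human AHR replicates 1, 2 and 3, so the same replicate numbers were high under both treatments. The averaged fit counts these arrays as independent, so its p values are too small to the extent that they are not. The 6 measured hepatocyte markers summed to 54280 to 71950 over all arrays, and the 5 measured adipocyte markers to 264.9 to 559.3 and 264.8 to 488.3 in wild type vehicle and TCDD arrays and to 405.2 to 728.6 and 567.8 to 857.2 in the human AHR ones. Stellate cell markers summed to 102.8 to 156.8 in wild type vehicle, 117.8 to 156.6 in wild type TCDD, 123.4 to 210.6 in human AHR vehicle and 188 to 230 in human AHR TCDD arrays, so that the genotypes did not overlap under TCDD. The largest part there was Reln, at 38.3, 65.6 and 49.7 in wild type TCDD and 126.6, 81.3 and 129.2 in human AHR TCDD arrays. Under TCDD 4 of the 8 markers were higher and 4 lower in human AHR cells, and 4 read below 20 in every array of either TCDD group. The adipocyte sums did not overlap between genotypes under TCDD either. Among single genes 8.1% did not overlap in that comparison. Endothelial markers summed to 122.4 to 125.7, 136.3 to 154.7, 133.7 to 234.9 and 125.6 to 199.8 in the order of groups given for the stellate sums, and cholangiocyte markers to 768.2 to 934.1, 602.3 to 694, 543.4 to 1371 and 534.8 to 1147. Wild type vehicle and TCDD arrays did not overlap in the endothelial and cholangiocyte sums, as was true of 9.0% of single genes. The part of any marker group in the lipogenesis values was not tested, and in bulk RNA fewer cells of a type and less RNA per cell cannot be told apart.

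The remaining probe sets gave no further call. The 10 genes have 22 probe sets, of which Acly holds 6, Elovl6 and Thrsp 3 each, Acaca, Scd1 and Me1 2 each, and the others 1. When every probe set was tested on its own, 0 of 22 were called in each comparison, against 0.00572% of 34945 probe sets for TCDD in wild type cells and 0.00858% in human AHR cells, 0.0172% for TCDD averaged over genotypes and 0.0286% for genotype averaged over treatments. The shares were 0.0% for the difference of TCDD effects, 0.00858% for genotype under vehicle and 0.00572% for genotype under TCDD. In human AHR cells 2 of 22 had an unadjusted p below 0.05, beside 3.19% of all probe sets. The dimmer Acaca probe set read 14.8, 13 and 14.7 under vehicle and 26.4, 33 and 28 under TCDD there, a log2 difference of 0.58 (limma adjusted p = 1.0), while the brighter one stood at 0.08. In wild type cells that dimmer set read 17.7, 22.7 and 21.0 against 8.76, 31.4 and 19.4, so the direction did not recur. The other was an Acly probe set that read 30.9, 4.90 and 25.9 under vehicle and 9, 4.1 and 3.6 under TCDD, at -0.69 (limma adjusted p = 1.0), beside -0.03 for the brightest Acly set. The same dim set had its smallest p values in other comparisons, at 0.85 for genotype under vehicle (limma adjusted p = 0.983) and -1.11 for the difference of TCDD effects (limma adjusted p = 1.0), on readings mostly below the offset. Another dim Acly set stood at -0.63 for genotype under TCDD. It was the 1 of 22 with an unadjusted limma p below 0.05 there, beside 4.37% of all probe sets. The dimmer Scd1 set read -0.35 for TCDD in wild type, where the brighter read 0.14.

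Around these genes, 53 others of the pathway were listed by function and 49 were measured. Of the 49, 0 were called in either direction in each of the 7 comparisons. An unadjusted p below 0.05 was found for 1 to 3 of them, beside 2.9% to 5.33% of all genes. With TCDD, 22 were positive and 27 negative in wild type cells, at a median of -0.04, and 24 and 25 in human AHR cells, at -0.01. Without wild type vehicle replicate 2 the wild type counts were 25 and 24, at 0.04. Of the 9 measured genes that control SREBP1, 4 were positive in wild type and 5 in human AHR cells. Among the 5 measured ChREBP partners and targets, 3 were positive in each genotype. Mlx, the partner of ChREBP, stood at -0.45 in wild type cells (-0.87 to -0.03), and G6pc, the glucose-6-phosphatase, at 1.08 (-0.01 to 2.16), both with an adjusted p of 0.966. Of the 5 measured genes that supply citrate, acetyl-CoA and NADPH, 1 was positive in wild type and 2 in human AHR cells. The 11 other genes of fatty acid synthesis and modification held 4 positive values in each genotype. Mid1ip1, the paralog of Thrsp that activates acetyl-CoA carboxylase, stood at -0.30 averaged over genotypes (-0.58 to -0.02, adjusted p = 0.997).

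Downstream, in triglyceride synthesis, 4 of 9 measured genes were positive in each genotype. Lpin2, a phosphatidate phosphatase, read 500 to 779 under vehicle and 744 to 1583 under TCDD in wild type cells, and 690.0, 702 and 773 against 813, 1104 and 1458 in human AHR cells. With human AHR every TCDD array exceeded the vehicle arrays, where 7.21% of all genes did not overlap in either direction, and in wild type cells the groups overlapped. The averaged log2 difference was 0.63 (0.22 to 1.05, unadjusted p = 0.00602, adjusted p = 0.997). Dgat1, which makes the final bond of triglyceride, stood at 0.29 in human AHR cells (-0.07 to 0.65). Among the 10 genes of lipid droplets and hydrolysis, 6 were positive in each genotype. Plin4, a droplet coat protein of adipocytes, read 4.30, 2.60 and 5.20 under vehicle and 27.5, 21.6 and 33.7 under TCDD in human AHR cells, a log2 difference of 1.11 (0.47 to 1.76, adjusted p = 1.0). Its difference of TCDD effects, human AHR minus wild type, was 1.06 (0.14 to 1.98, adjusted p = 0.998). These vehicle readings lie below the offset of 16. The adipocyte marker sums ran highest in the same group, but most of each sum was Fabp4, at 471.8, 386.3 and 683.1 there. In that group 3 of the 5 markers read below 20 in every array. Adipoq and Retn had their highest group means in wild type TCDD arrays, at 16.3 and 20.8. Lep and Cidea had theirs in human AHR TCDD arrays, at 4.20 and 138. The part of adipocytes in the Plin4 values was not tested.

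Between genotypes under vehicle 15 of the 49 were positive and 34 negative, at a median of -0.15 against 0.03 over all genes. Without wild type vehicle replicate 2, an array with the female pattern, the counts were 22 and 27, at -0.04. Under TCDD the counts were 17 and 32, at -0.04, and without both wild type replicate 2 arrays 32 and 17, at 0.09. Pgd, an NADPH-yielding dehydrogenase of the pentose phosphate pathway, had the smallest p of the wider list in each genotype comparison, and its averaged log2 difference, human AHR over wild type, was 0.25 (0.08 to 0.42, adjusted p = 0.753). Under vehicle Nr1h3, the liver X receptor that induces Srebf1, stood at -0.43 (-0.86 to 0.01) and Acss2, which makes acetyl-CoA from acetate, at -0.45 (-0.95 to 0.05). Oxsm, a mitochondrial fatty acid synthase enzyme, stood at -0.41 averaged over treatments (-0.78 to -0.04, adjusted p = 0.924), and Scap, the escort of SREBP, at 0.20 (-0.00 to 0.40).

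The lipogenesis genes also varied between arrays of the same group. The residual SD on the log2 scale was 0.51 for Elovl6, 0.38 for Thrsp, 0.35 for Mlxipl and 0.34 for Fasn, and 0.13 for Me1. Among the 1000 genes nearest in signal, 93.5% had a smaller SD than Elovl6, 88.2% than Thrsp, 81.8% than Fasn and 17.3% than Me1. Wild type replicate 3 was the lowest array of its group for 6 of the 10 genes under vehicle and for 6 under TCDD, with median deviations of -0.13 and -0.32 from the group mean. Mlxipl, Fasn and Acaca were lowest there under both treatments. Wild type replicate 2 was the highest array under both treatments for Mlxipl, Fasn, Acaca, Elovl6 and Pnpla3, and the lowest under both for Thrsp. Human AHR replicate 2 was the lowest under both treatments for Fasn, Elovl6 and Pnpla3 and the highest for Me1 and Thrsp. Xist, expressed from the silenced X chromosome of female cells, read 2952 to 3085 in both wild type replicate 2 arrays and at most 29.3 in the other 10, and the Y-linked Eif2s3y at most 4.70 against at least 452.7.

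**Figure D3:**
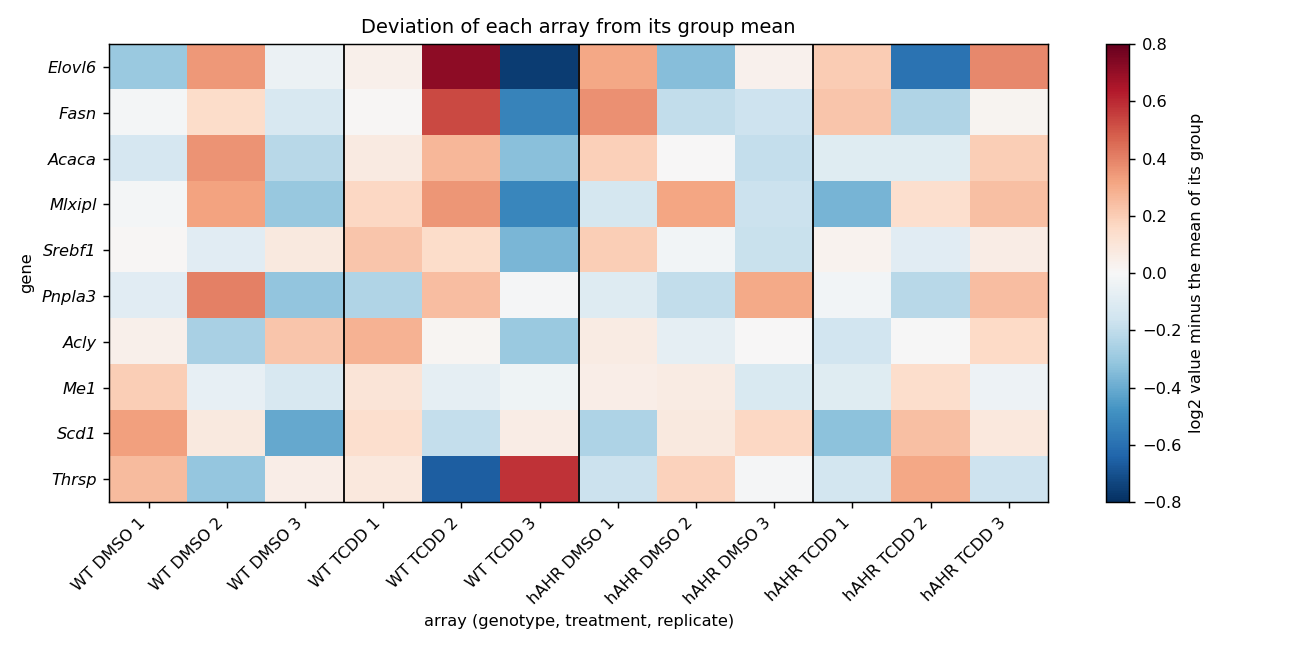
Deviation of each array from the mean of its group (colour, log2 scale) for the 10 lipogenesis genes, with lines between groups. Wild type TCDD replicate 2 is high for Elovl6 (0.72) and Fasn (0.53) and low for Thrsp (-0.66), and wild type TCDD replicate 3 is the reverse (-0.76, -0.54 and 0.58).

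Fasn and Elovl6 went together across the 12 arrays and Thrsp went against them. Of the 45 pairs among the 10 genes, 27 had a positive Pearson correlation, and 4 had a permutation p below 0.05 after adjustment over the 45 pairs. These permutations treat the 12 arrays as exchangeable, although same-numbered human AHR arrays deviate together and replicate 2 holds the same extreme under both treatments for Fasn, Elovl6 and Thrsp within each genotype, so the p values are too small to the extent that arrays are not independent. Fasn and Elovl6 had r = 0.836 (two-sided permutation p = 0.00041, adjusted 0.0133) and Spearman's rho = 0.874 (permutation p = 0.00043, adjusted 0.0193). Leaving out the 2 arrays farthest from the median gave r = 0.697, and r was 0.957 within the 6 wild type and 0.777 within the 6 human AHR arrays. Fasn and Thrsp had r = -0.84 (permutation p = 0.00082, adjusted 0.0133) and rho = -0.769 (permutation p = 0.0047, adjusted 0.0423), with r = -0.656 without the 2 farthest arrays and r = -0.88 and -0.757 within the genotypes. Elovl6 and Thrsp had r = -0.829 (permutation p = 0.00089, adjusted 0.0133) and rho = -0.811 (permutation p = 0.00245, adjusted 0.0276), with r = -0.661 without the 2 farthest arrays and r = -0.938 and -0.85 within the genotypes. Acaca and Thrsp had r = -0.758 (permutation p = 0.00413, adjusted 0.0465) and rho = -0.811 (permutation p = 0.00228, adjusted 0.0276), with r = -0.67 without the 2 farthest arrays, and r = -0.864 in wild type but -0.414 in human AHR cells. Fasn with Acaca (r = 0.723) and Acaca with Elovl6 (r = 0.724) did not pass, each with an adjusted permutation p of 0.0631. Srebf1 and Acly had r = 0.649 (adjusted permutation p = 0.132).

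**Figure D4:**
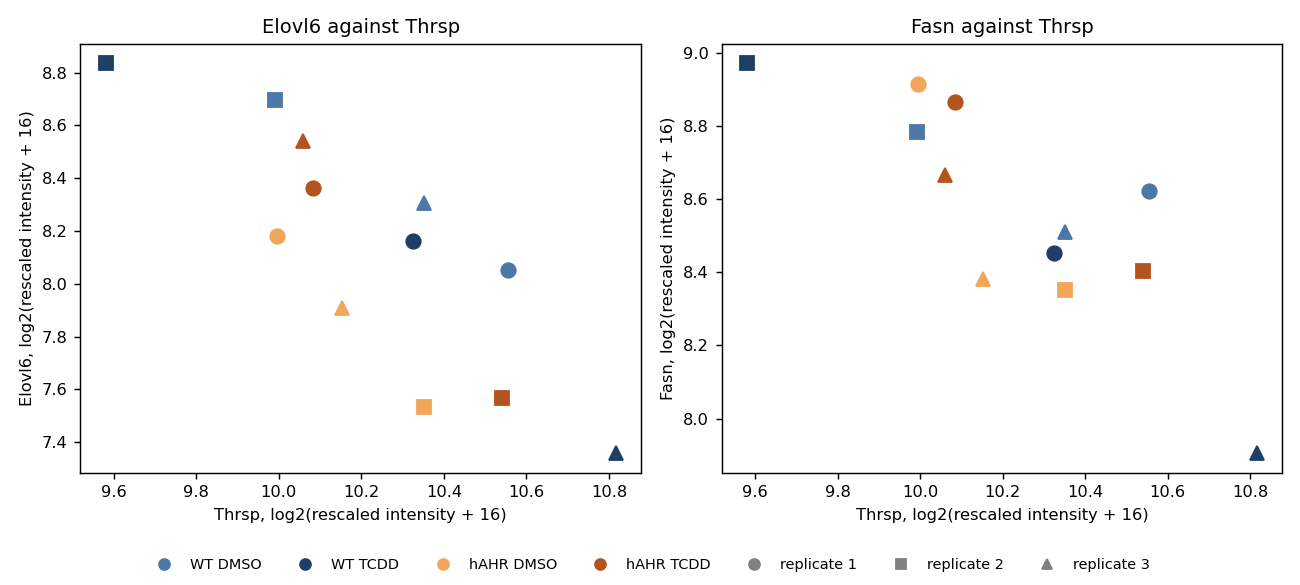
Elovl6 (left) and Fasn (right) against Thrsp in each of the 12 arrays, all as log2 of the rescaled intensity plus 16, with colour for the group and shape for the replicate number. Values fall as Thrsp goes up (r = -0.829 and -0.84), and wild type TCDD replicates 2 and 3 hold the ends.

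These deviations followed a pattern shared by much of the array. The leading axis of the deviations of all genes from their group means held 32.6% of their variance, and its largest loadings were those of wild type TCDD replicate 2 (0.599) and replicate 3 (-0.545). Deviations correlated with that axis at -0.995 for Thrsp, 0.958 for Elovl6, 0.9 for Fasn and 0.776 for Acaca, and at 0.129 for Acly, 0.451 for Mlxipl and 0.564 for Srebf1. A correlation of at least 0.7 in size was found for 4 of the 10 genes, for 22.5% of all genes and for 38.2% of the 9096 brighter genes. With the axis removed, the correlation of deviations went from 0.89 to 0.22 for Fasn with Elovl6, from -0.9 to -0.1 for Fasn with Thrsp, from -0.97 to -0.53 for Elovl6 with Thrsp and from -0.78 to -0.11 for Acaca with Thrsp. Because these genes follow the axis so closely, little of their deviation remained, so a fall was largely built in and decides nothing. With the axis left in and wild type TCDD replicates 2 and 3 left out, the same pairs had 0.75, -0.73, -0.95 and -0.65 over the other 10 arrays. The Actb ratio of 3′ to 5′ signal reads RNA integrity. Its deviations correlated at -0.69 with Fasn, -0.38 with Acaca, -0.67 with Elovl6 and 0.62 with Thrsp. In the same order the Gapdh ratio had -0.16, -0.38, -0.17 and 0.32, and the array median -0.49, -0.43, -0.22 and 0.16. Summed adipocyte markers, most of that sum being Fabp4, correlated in the same way at -0.62 with Fasn, -0.68 with Acaca, -0.37 with Elovl6 and 0.52 with Thrsp. For cholangiocyte markers the values were 0.46, 0.2, 0.52 and -0.38. No correlation was above 0.46 in size for hepatocyte, Kupffer cell, stellate cell or endothelial markers. The part of RNA integrity and of these cells in the pattern was not tested.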

How the data were processed

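Gene expression was measured on 12 Affymetrix mouse arrays, 3 per group. Per the series' design text and the submitters' processing notes, the authors made the deposited intensities with the PLIER-MM algorithm (Affymetrix Expression Console 1.1). The deposited intensities were linear, with a 2% trimmed mean of 500 in the wild type TCDD group (3 arrays) and 150 in the other 9, which is how global scaling and not PLIER leaves arrays, so the scale of these values is at odds with the stated method. Every array was rescaled to a trimmed mean of 150, and log2 was taken after adding 16.

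Probe sets were named from GEO's platform annotation. Of 45101 probe sets, 64 were controls, 34945 named 1 symbol, 932 several and 9160 were not listed there. Each gene was represented by its probe set with the highest mean among those of its symbol alone. limma 3.58.1 in R 4.3.3 fitted 4 group means with an intensity trend (lmFit and eBayes, 8 residual degrees of freedom). Tests were two-sided, the Benjamini-Hochberg adjustment covered all genes within a comparison, and the threshold was 0.05. The fit was tested on simulated data. Correlations used 100000 permutations.

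The members, the lists, the tests and their alternatives were chosen with earlier results of these data known. All members, the TCDD-induced genes Tiparp and Cyp1a1, and the 3 genes of the wider lists with the smallest p in each comparison were named. Removing the leading axis of the deviations, leaving out wild type TCDD replicates 2 and 3, and the wider lists without the wild type replicate 2 arrays, were chosen after seeing the data. Of the wider lists, 4 genes were not analysed here.

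Same-numbered vehicle and TCDD arrays deviated together in human AHR cells (r = 0.24, 0.27 and 0.19 across genes, at most -0.04 between other numbers), which was taken as a pairing by number. In wild type cells r was 0.25, 0.51 and 0.05, and -0.46 to 0.28 between other numbers, so the numbers were not taken to pair. The 0.51 belongs to replicate 2, whose arrays both show the female pattern, and whether they share an animal was not tested. An alternative fit given below used the replicate number as a block within both genotypes, wild type included. The human AHR pairing comes from the values, not from the design text, which gives 1 mouse per array. Limma intervals and p values in the Results are from fits that do not use the pairing. Genotype intervals averaged over treatments are too narrow to the extent that same-numbered arrays are not independent. The other deposited scale coincides with the wild type TCDD group, so any effect of it that rescaling left cannot be told apart from that of TCDD in wild type cells. Figures used matplotlib 3.10.9 in Python 3.11.15.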

Additional observations from a re-analysis of the deposited data

How the results depend on the processing

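None of the 10 genes was called in any of the 7 comparisons under the alternatives run, 24 for each comparison of single groups and 23 for the difference of TCDD effects and the averaged comparisons, where a fit to only the arrays of the comparison was not run, and the smallest adjusted p of any of them was 0.469, for TCDD in wild type cells. With the replicate block within genotype the counts stayed at 0 in all 7, and the block changed no other call of these genes. Over all genes, fits with 1 value a gene called 0 to 1 for TCDD in wild type and 0 to 6 in human AHR cells. Signs of the small differences turned in at least 1 alternative for 8 genes in the wild type TCDD comparison, 7 in the human AHR one, 4 for the difference of these effects, 6 for genotype under vehicle, 7 under TCDD, 7 for averaged TCDD and 8 for averaged genotype. For TCDD in wild type cells, array weights gave 0.11 for Srebf1, a shared median gave -0.025 for Mlxipl and -0.077 for Acaca, the mean over probe sets gave -0.034 for Acaca, 0.018 for Acly and -0.10 for Scd1, and leaving out both wild type replicate 2 arrays gave 0.12 for Thrsp. For TCDD in human AHR cells, quantile normalization gave -0.027 for Scd1 and -0.014 for Me1, and array weights gave -0.00298 for Me1. Without both wild type replicate 2 arrays the averaged genotype difference of Elovl6 was 0.047. Leaving out single arrays gave, for TCDD in wild type cells, -0.14 to 0.15 for Srebf1, -0.12 to 0.32 for Mlxipl, -0.46 to 0.073 for Fasn, -0.13 to 0.18 for Acaca, -0.060 to 0.31 for Scd1, -0.59 to 0.15 for Elovl6 and -0.35 to 0.27 for Thrsp. In human AHR cells it gave -0.30 to 0.0070 for Mlxipl, -0.015 to 0.28 for Fasn, -0.020 to 0.17 for Acaca, -0.11 to 0.043 for Acly, -0.11 to 0.18 for Scd1, -0.060 to 0.058 for Me1 and -0.10 to 0.15 for Thrsp. For Scd1 between genotypes under vehicle it gave -0.36 to 0.0049. The cause was not tested for any of these. Tiparp kept its sign throughout, at 1.03 to 1.47 in wild type and 1.34 to 1.40 in human AHR cells. Pnpla3 lies near the offset, which limits what its values can show.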

Other observations

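For each lipogenesis gene, the 3 genes whose log2 values correlated most closely with it across the 12 arrays were taken from the 9087 others with a mean above the median. Elovl6 was followed by Oaf (r = 0.982), Urod (0.96) and Mob3b (0.96), Fasn by Mtmr11 (0.967), Vps33a (0.955) and Mre11a (0.945), and Thrsp by Timm17a (0.973), Tprkb (0.964) and H2ac19 (0.949). Scd1 was followed by Prkaa2 (0.935), which encodes a catalytic subunit of AMP-activated protein kinase, Xpr1 (0.931) and Aldh2 (0.887). For Srebf1 the nearest were 4932438A13Rik (0.93), Samd10 (0.894) and Svil (0.885), for Mlxipl Ap1b1 (0.907), Pik3r4 (0.893) and Hs1bp3 (0.88), and for Acaca Adck5 (0.931), Coq8b (0.885) and Rnf26 (0.88). Acly was nearest to Spryd3 (0.908), Ahnak (0.901) and Ccn2 (0.891), Me1 to Atxn7 (0.908), Nfyc (0.872) and Mief1 (0.871), and Pnpla3 to Abat (0.919), Cuedc2 (0.908) and Bvht (0.906). These arrays share their libraries and the leading axis described above, and the genes were picked as the closest in that search, so the correlations are descriptions only.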
